A study of Mus musculus with 2 samples.

Results

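The genes of axon guidance and Eph signalling described here are 63 of the 21938 protein-coding mouse genes of the GENCODE M21 annotation. They were chosen by symbol: the Eph receptors (14 genes), the ephrins (8), the class 3 semaphorins (7), the other semaphorins (13), the neuropilins (2), the plexins (9), the Slits (3), the Robo receptors (3) and the netrins (4). The endothelial receptor gene Robo4 was not among them. Chromatin open to the nuclease DNase I was mapped in limbs of mouse embryos of strain B6NCrl at day 14.5, with males and females pooled and described as healthy. There was 1 group of 2 biological replicates, each with its own list of peaks of 150 bp and of hotspots, which are broader open regions. Both replicates carry the same donor identifier, and a label on replicate 2 alone names sequencers, 2 models of them. It is not settled whether separate embryos were pooled for each replicate. There was no other tissue, age or genotype, so the comparisons lay between the replicates and between these genes and all protein-coding genes.

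Ephrins are ligands held at the cell surface that signal to Eph receptors on touching cells, and signals pass in both directions. Semaphorins, Slits and netrins are mostly guidance cues: class 3 semaphorins are secreted and are read by neuropilins paired with plexins, Slits are read by Robo receptors, and netrins by receptors that attract or repel growing axons. In the limb these systems steer motor and sensory axons between muscle masses, shape vessels and keep cell groups apart, so the genes can be active in mesenchyme and vessels as well as in neurons. The cell bodies of the limb's motor and sensory neurons lie outside the limb.

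Peaks of replicate 1 were taken as shared where a single replicate 2 peak covered at least 50% of their length. Shared peaks keep the replicate 1 coordinates (mm10 build). Replicate 1 peaks that overlap each other were counted separately, even where the same replicate 2 peak covered them. A gene counted as open when a shared peak overlapped the 500 bp on either side of any of its annotated transcription start sites (TSSs). A distal peak had its centre more than 1 kb away from any protein-coding TSS and was assigned to the gene with the nearest TSS within 100 kb, which is a rule of position and does not show which gene a region acts on. By these rules the 63 genes had 95 shared TSS peaks and 624 shared distal peaks, out of 127632 shared peaks in all, of which 75905 were distal peaks given to a gene. Another 39 shared peaks near these genes lay between the TSS windows and the distal limit. Signals are the authors' own whole numbers per peak, with a median of 42 over the 208674 peaks of replicate 1 and 31 over the 196593 of replicate 2. No read counts were used and depth is unknown, so the absence of a peak means that none was called.

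The leading distal peaks of several guidance genes carried recognisable letters of transcription factor motifs. The 11 shown here are each the strongest or, at Ephb3, the second strongest shared distal peak of the gene. They were picked because they carry motifs whose shares over all distal peaks are given further on. Other leading peaks held none of the marked motifs, such as the strongest of Sema6a, Ephb3, Efnb2, Efna5, Epha4, Efna3 and Robo3. The 11 peaks are printed on the forward strand of GRCm38, which is the mm10 assembly. Capitals mark motif matches on either strand: CAGATG at Slit2 and Epha7 and CAGCTG at Slit3, Ntn1, Ephb3, Plxna1, Plxnb2 and Robo1 (E-boxes, read by basic helix-loop-helix factors); the CTCF site at Slit2, Slit3 and Sema3d; ATCAAAG at Sema3e (TCF/LEF, the effectors of Wnt signalling); TGANTCA at Epha7 (AP-1); CAATAAA at Nrp2 (posterior HOX factors); and ACATTCC at Plxna1 and Plxnb2 (TEAD, the partners of YAP). Matches to other searched motifs were left in lower case, as at Ntn1 and Nrp2. A match is a description of letters, not of a bound factor.
Slit2 distal peak, chr5:48126136-48126285: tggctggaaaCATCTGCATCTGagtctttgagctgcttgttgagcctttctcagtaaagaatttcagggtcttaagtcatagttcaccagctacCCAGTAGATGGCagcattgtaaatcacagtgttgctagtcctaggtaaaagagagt
Slit3 distal peak, chr11:35119496-35119645: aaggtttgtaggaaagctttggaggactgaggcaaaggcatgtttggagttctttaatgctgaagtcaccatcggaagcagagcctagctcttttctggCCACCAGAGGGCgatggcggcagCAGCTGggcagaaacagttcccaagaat
Ntn1 distal peak, chr11:68408296-68408445: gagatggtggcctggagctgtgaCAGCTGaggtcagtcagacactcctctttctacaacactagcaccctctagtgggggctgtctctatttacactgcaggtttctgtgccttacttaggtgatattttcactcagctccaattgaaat
Sema3d distal peak, chr5:12562316-12562465: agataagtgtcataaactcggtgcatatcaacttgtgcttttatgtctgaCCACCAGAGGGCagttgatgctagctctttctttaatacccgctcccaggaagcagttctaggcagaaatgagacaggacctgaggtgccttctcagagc
Sema3e distal peak, chr5:13993056-13993205: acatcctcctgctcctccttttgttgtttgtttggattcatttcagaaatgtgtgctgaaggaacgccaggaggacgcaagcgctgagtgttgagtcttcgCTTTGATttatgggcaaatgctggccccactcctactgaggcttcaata
Epha7 distal peak, chr4:28784036-28784185: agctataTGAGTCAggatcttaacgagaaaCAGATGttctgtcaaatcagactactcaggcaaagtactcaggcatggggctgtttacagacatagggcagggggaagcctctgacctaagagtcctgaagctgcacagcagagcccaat
Ephb3 distal peak, chr16:21310976-21311125: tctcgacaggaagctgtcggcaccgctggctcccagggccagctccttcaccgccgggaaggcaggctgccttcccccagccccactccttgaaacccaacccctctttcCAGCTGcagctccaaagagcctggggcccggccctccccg
Nrp2 distal peak, chr1:62707716-62707865: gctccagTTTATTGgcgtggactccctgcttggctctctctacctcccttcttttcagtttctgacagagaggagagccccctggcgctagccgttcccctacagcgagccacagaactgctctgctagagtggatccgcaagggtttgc
Plxna1 distal peak, chr6:89345036-89345185: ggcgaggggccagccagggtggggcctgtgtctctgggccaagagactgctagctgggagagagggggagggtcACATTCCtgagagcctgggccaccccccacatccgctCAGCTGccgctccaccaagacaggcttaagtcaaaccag
Plxnb2 distal peak, chr15:89169576-89169725: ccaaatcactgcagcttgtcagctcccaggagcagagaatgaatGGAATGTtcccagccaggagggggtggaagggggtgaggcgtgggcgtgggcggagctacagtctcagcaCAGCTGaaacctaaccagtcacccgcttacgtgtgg
Robo1 distal peak, chr16:72924536-72924685: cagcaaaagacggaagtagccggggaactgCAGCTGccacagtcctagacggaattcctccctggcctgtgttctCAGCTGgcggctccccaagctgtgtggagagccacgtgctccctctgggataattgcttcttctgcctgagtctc
The Plxna1 and Plxnb2 peaks both held a TEAD and a CAGCTG match, and both lay inside introns of their genes. The Nrp2 peak was intronic, 4.09 kb from the nearest TSS, and the Ephb3 peak intergenic, 89.4 kb away.

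Most of these genes were open at the TSS in limb. Of the 63 genes, 55 (87.3%) had at least 1 shared TSS peak, against a background of 65.1% of all protein-coding genes. With a single replicate the count was 60 in replicate 1 and 58 in replicate 2, where 69.4% and 68.2% of all genes were open. At least 2 shared TSS peaks were found at 28 of the genes (44.4%), against 32.9% of all genes. These shares were not tested, since the genes are not independent samples, and the exact binomial 95% interval of the first (76.5 to 94.4%) covers sampling of genes only. The CpG content of a gene was its highest ratio of observed to expected CpG dinucleotides over all its TSS windows. It moves with openness over all genes: 92.8% of genes with a ratio of 0.6 to 0.8 were open, and 10.3% of those up to 0.3. In these bins 28 of 31 and 1 of 3 of the guidance genes were open. In the bin from 0.3 to 0.6 the counts were 9 of 10 against 61.6% of all genes, and above 0.8 they were 17 of 19 against 96.3%. The part of CpG content in the excess of open genes was not tested. None of the 95 TSS peaks lay in the TSS window of another protein-coding gene.

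Promoter peaks of these genes were close in rank to those of open genes at large. Over all 95 shared TSS peaks the median signal percentile was 89.4, against 89.3 over all shared TSS peaks. The median signal of the strongest shared TSS peak over the 55 open genes was 108 in replicate 1 and 78 in replicate 2, where all open genes had 117 and 89. It was in the top decile of both lists at 37 of the 55 (67.3%), and over all open genes in 70.0%. Each gene is shown in the plot of promoter signals. Efnb2 had 139 in replicate 1 and 108 in replicate 2, Ephb3 had 138 and 116, Ephb4 had 135 and 109, Epha7 had 134 and 116 and Sema6a had 126 and 115. These lay near the top of the range in both replicates. At the low end Slit1 had 44 and 31, Sema4a 55 and 44, and Efna5 59 and 38. Their strongest TSS peaks in each list, shared or not, were higher at Sema4a (68 and 64) and Efna5 (77 and 45).

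**Figure D1:**
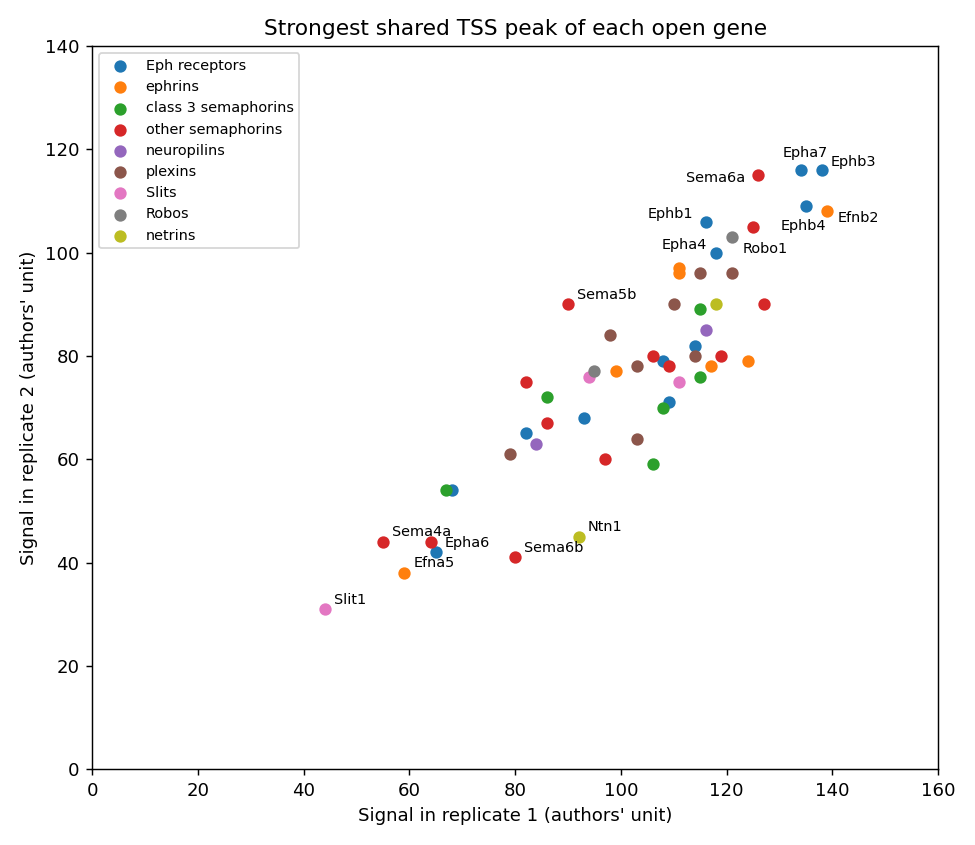
Signal of the strongest shared TSS peak of each of the 55 open genes, replicate 1 on the x axis and replicate 2 on the y axis, both in the authors' own unit, with 1 point per gene coloured by family. Efnb2, Ephb3, Ephb4, Epha7 and Sema6a sit at the upper right and Slit1 at the lower left, at 44 and 31.

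Ephrins are the membrane-bound ligands, with the A class anchored by a lipid and the B class crossing the membrane. Of the 8 ephrin genes 7 were open, and together they had 39 shared distal peaks (median 3). Efnb2, which marks arteries and acts in sorting cells at boundaries (chromosome 8, 8617434 to 8661242), had the highest promoter signal of these genes in replicate 1. It had 13 distal peaks in replicate 1 and 19 in replicate 2, of which 9 were shared. Efna5, whose product repels axons, had 30 and 19 with 13 shared, the most among the ephrins. This gene's strongest shared promoter peak was among the weakest of the open genes. The hotspot over its TSS was 4612 bp wide in replicate 1 and 894 bp in replicate 2, so the replicates differed more in breadth than in the presence of a peak. Efnb1, an X-linked ligand needed for normal skull and limb skeleton, had promoter signals of 111 and 96 and 4 shared distal peaks, from 9 and 7. Efna3 had 7 shared distal peaks in a territory of 25.8 kb, a density of 27.1 per 100 kb, where territory means the stretch of sequence whose distal peaks would be assigned to that gene. Its exonic peaks, centred 6.354 and 6.375 kb from the outermost 5′ end, overlap each other and were counted separately. Efna1, Efna3 and Efna4 are neighbours on chromosome 3 with gaps of 32.8 and 10.4 kb and no protein-coding gene between them. All 3 were open, with 2, 7 and 1 shared distal peaks.

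Efna2 was the ephrin without a shared TSS peak. It had 1 TSS peak in each replicate, of signal 86 and 65. The centres lay 100 bp apart, so the peaks overlapped by less than the rule asks, and Efna2 counted as open when any overlap was accepted. It had 2 shared distal peaks.

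Class 3 semaphorins are secreted cues. Of the 7 genes 6 were open, and they had 82 shared distal peaks with a median of 13. Sema3a, which repels motor and sensory axons and limits their growth in the limb (chromosome 5, 13125414 to 13602565), had 34 distal peaks in replicate 1 and 39 in replicate 2, of which 23 were shared, and 4 shared TSS peaks. Its strongest distal peak was intronic, 70.6 kb from the nearest TSS, with signals of 100 and 64. Sema3d had 26 and 29 with 18 shared, and Sema3c, which acts in vessel and heart development, had 19 and 25 with 13 shared. Sema3f, a repellent read by neuropilin 2, had 9 and 11 with 9 shared in a territory of only 32 kb, a density of 28.1 per 100 kb. Sema3b, 72.3 kb from it, and Sema3g had 1 each.

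Sema3e, a repellent of vessels that binds plexin D1 directly, was not open by the rule yet had 17 shared distal peaks, from 23 in replicate 1 and 21 in replicate 2. At its TSS replicate 1 had peaks of signal 35 and 51 and replicate 2 had a peak of signal 39, whose centre lay 200 bp from the nearest of replicate 1. Its TSS was open with either replicate alone and with hotspots. It follows Sema3d and Sema3a on the same stretch of chromosome 5, with gaps of 536 and 423 kb, and those neighbours had 18 and 23 shared distal peaks.

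The other semaphorins are mostly membrane proteins, and all 13 had a shared TSS peak, with 26 such peaks in all and at least 2 at 9 of the genes. They had 117 shared distal peaks, but with a wide spread, from 0 at Sema4c and Sema4g to 30 at Sema6a. Sema6a, a transmembrane ligand of class A plexins, had 37 distal peaks in replicate 1 and 42 in replicate 2. Its strongest had signals of 119 and 93 and lay 1.56 kb from the TSS, and it was the strongest shared distal peak of all 63 genes. Sema5a, which acts on axons and vessels, had 37 and 42 with 25 shared, 23 of them intronic. Sema5b had 22 and 23 with 16 shared. Sema4c had promoter signals of 127 and 90 and 4 shared TSS peaks, and no shared distal peak was given to it. That zero depends on the rules: Sema4c had 2 shared distal peaks when any overlap was accepted, 8 with the starts of protein-coding transcripts only and 10 with outermost 5′ ends only.

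Slits are large secreted repellents. All 3 genes were open and had 58 shared distal peaks. Slit3 (chromosome 11, 35121224 to 35708507) had 56 distal peaks in replicate 1 and 49 in replicate 2, of which 32 were shared, 25 of them in introns. Slit1 had 19 and 22 with 14 shared, and its promoter peak was the weakest of the open genes. Slit2 had 20 and 18 with 12 shared, and promoter signals of 111 and 75. The promoter of Slit3 had signals of 94 and 76.

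Netrins are laminin-like secreted cues, and their promoters were the least often open, at 2 of 4 genes. Ntn1, the main attractant of commissural axons (chromosome 11, 68209364 to 68400823), had 19 distal peaks in replicate 1 and 18 in replicate 2 with 11 shared, and 3 shared TSS peaks. Its strongest promoter peak had signals of 92 and 45, a wider gap between the lists than at most genes, and it left the count when only the 50000 strongest peaks of each list were used. Ntn4, a netrin of basement membranes, had 4 TSS peaks in replicate 1, with signals of 32, 35, 38 and 45, and none in replicate 2. It had 6 shared distal peaks, all intronic, the strongest with signals of 88 and 63. Ntn5 had no TSS peak in either replicate. Ntn3 was open and had 3 shared distal peaks.

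Eph receptors are receptor tyrosine kinases that read ephrins. Of the 14 genes 12 were open, and every gene had at least 1 shared distal peak, 121 in all. Epha4, which directs motor axons to the dorsal limb (chromosome 1, 77367185 to 77515088), had promoter signals of 118 and 100 under hotspots 2866 bp wide in replicate 1 and 1637 bp in replicate 2. It had 32 and 28 distal peaks, of which 20 were shared, 12 in introns and 8 intergenic. Epha7, expressed in limb mesenchyme, had promoter hotspots 3653 bp wide in replicate 1 and 3650 bp in replicate 2, the latter the widest of the 63 genes in that replicate, and 4 shared TSS peaks. Its shared distal peaks numbered 7, from 14 and 12, and the strongest had signals of 59 and 50. That peak lay at signal percentiles of 72.8 and 79.7, and the strongest shared promoter peak at 99.1 and 99.2. Epha3 had 6 shared distal peaks, from 12 and 10, and Epha2 had 13, from 25 and 15.

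Ephb3 and Ephb2 had the most distal peaks of the family. Ephb3 (chromosome 16, 21204755 to 21223305) had 37 distal peaks in replicate 1 and 33 in replicate 2, of which 26 were shared. All 26 were intergenic, most of them past the 3′ end of this short gene, at a density of 19.6 per 100 kb of territory. The strongest lay 24.4 kb from the nearest TSS, with signals of 115 and 87. Ephb2 (chromosome 4, 136647539 to 136835988), which guides axons on ephrin-B cues, had 33 and 44 with 22 shared, 19 of them intronic. Ephb4, the receptor of veins that pairs with ephrin-B2, had a strong promoter but 5 shared distal peaks, from 9 and 13, in a territory of 31.9 kb. Epha5 and Epha6, receptors best known from the brain, had 1 and 3 in territories of 250.7 and 396.0 kb, the lowest densities among these genes outside those with no shared distal peak. Both were open at the TSS, with signals of 82 and 65 at Epha5 and 65 and 42 at Epha6.

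Epha8 and Epha10 were the Eph receptors without a shared TSS peak. Epha8 had 2 TSS peaks in replicate 1, with signals of 34 and 37, and none in replicate 2. Epha10, a receptor without kinase activity, had none in either. The shared distal peaks given to them numbered 4 and 2.

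Neuropilins are co-receptors of class 3 semaphorins and of VEGF. Both were open. Nrp1 had 27 distal peaks in replicate 1 and 30 in replicate 2 with 16 shared, and Nrp2 had 38 and 22 with 17 shared. Nrp2 was among the genes with the widest gap between the replicates, with more peaks in replicate 1. The promoter signals were 84 and 63 at Nrp1 and 116 and 85 at Nrp2. The hotspot over the Nrp1 TSS was 2938 bp wide in replicate 1 and 928 bp in replicate 2.

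Plexins are the signalling receptors of semaphorins, and 8 of 9 were open, with 105 shared distal peaks. Plxnc1, the receptor of semaphorin 7A (chromosome 10, 94790866 to 94944835), had 40 distal peaks in replicate 1 and 48 in replicate 2, of which 32 were shared, 16 in introns and 16 intergenic. Plxna2 had 31 and 34 with 24 shared, Plxna1 33 and 26 with 20 shared, and Plxna4, which reads semaphorin 3A with neuropilin 1, 31 and 25 with 15 shared. Plxnd1, the endothelial receptor of semaphorin 3E, had 8 and 7 with 6 shared and promoter signals of 114 and 80. Plxnb3 was the plexin without a shared TSS peak: replicate 2 had a weak TSS peak of signal 19, replicate 1 had none, and no distal peak was given to it in either list. Its CpG ratio, the highest over its TSS windows, was the lowest of all 63 genes, 0.099.

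Robo receptors read Slits, and 2 of 3 were open. Robo1 (chromosome 16, 72308306 to 73046095) had 55 distal peaks in replicate 1 and 62 in replicate 2, of which 32 were shared, 25 in introns. Its only shared TSS peak, with signals of 121 and 103, lay at an internal start 355 kb inside the outermost 5′ end. Robo2 had 16 and 18 with 11 shared. Robo3, which lets commissural axons cross the midline, had a TSS peak of signal 37 in replicate 1 and none in replicate 2. Its strongest shared distal peak, intronic and 1.73 kb from the nearest TSS, had signals of 103 and 79. Robo3 counted as open with TSS windows of 1000 bp and with hotspots. The widest hotspot over its TSS windows was 486 bp in replicate 1 and 420 bp in replicate 2. The shared TSS peaks of Plxna2, Sema4a and Sema6d also lay only at internal starts, 520 kb inside the outermost 5′ end at Sema6d. With the outermost 5′ end alone these 3 genes and Robo1 left the count, which fell to 51, with 59.1% of all genes then open.

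Over all families the ligands and the receptors had like numbers of distal peaks. The 35 ligand genes had 317 shared distal peaks (median 6, 31 open) and the 28 receptor genes 307 (median 6.5, 24 open). The median territory was 93.1 kb for ligands and 198.0 kb for receptors. At least 1 shared distal peak was given to 60 of the 63 genes (95.2%), against 64.9% of all protein-coding genes, and 10 or more to 25 (39.7%), against 10.1%. The mean was 9.90 per gene and 3.46 over all genes, and the medians were 6 and 1. In replicate 1 alone the means were 15.8 and 5.75, and in replicate 2 alone 15.9 and 5.33. The 10 genes with the most (Plxnc1, Robo1, Slit3, Sema6a, Ephb3, Sema5a, Plxna2, Sema3a, Ephb2 and, level with Plxna1, Epha4) held 266 of the 624 (42.6%). This order depends on which starts are used. With outermost 5′ ends only, Plxnc1, Sema6a and Ephb3 had 26, 25 and 25, while Robo1 fell from 32 to 7, Slit3 from 32 to 17, Sema5a from 25 to 11, Plxna2 from 24 to 12, Sema3a from 23 to 13, Ephb2 from 22 to 11 and Epha4 from 20 to 7. With the starts of protein-coding transcripts only, Epha4 and Ephb2 had 20 each and Robo1 18, and Slit3, Sema5a, Sema3a and Plxna2 had 17, 11, 11 and 10. Within 50 kb in place of 100 kb, Ephb3 had 12, Plxna1 10, Robo1 17, Slit3 18 and Sema5a 16. At the other end 19 genes had 1 to 3, and Plxnb3, Sema4c and Sema4g had 0.

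**Figure D2:**
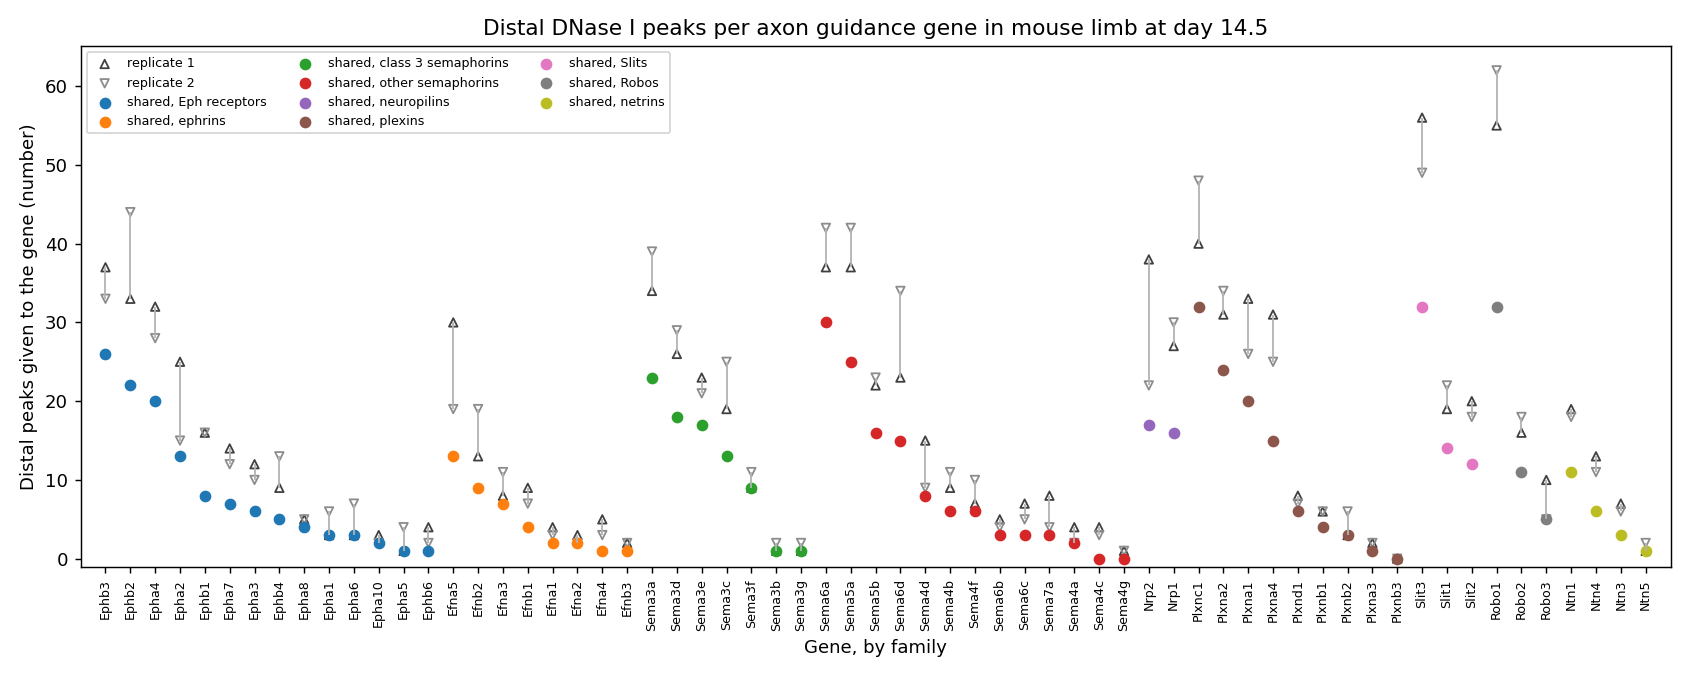
Number of distal peaks given to each of the 63 genes, by family and in falling order of shared peaks. Open triangles give replicate 1 (pointing up) and replicate 2 (pointing down), joined by a grey line, and filled circles give the shared peaks, from 0 at Plxnb3, Sema4c and Sema4g to 32 at Plxnc1, Slit3 and Robo1.

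The replicates gave these genes nearly the same number of distal peaks, 998 in replicate 1 and 999 in replicate 2. Across the 63 genes the counts had a Spearman rank correlation of 0.947, a description over genes that share both libraries and keep the same territory. The shared portion was 62.5% of the distal peaks of replicate 1 and 62.1% of those of replicate 2, where over all peaks it was 61.2% and 65.0%. Unshared distal peaks were weaker, with a median signal of 34 against 48 for shared ones in replicate 1 and 24 against 36 in replicate 2. Of the distal peaks 28.7% of replicate 1 and 29.0% of replicate 2 lay outside every hotspot of the other replicate. Of the TSS peaks 23.0% of the 165 of replicate 1 did so and 6.12% of the 147 of replicate 2, so the gap between the replicates was wider there. Over all peaks, of every kind, these shares were 30.8% and 23.9%. They were not worked out for the TSS peaks or the distal peaks of all genes alone. Epha2 and Efna5, like Nrp2, had more distal peaks in replicate 1, and Ephb2 and Sema6d more in replicate 2, with 33 against 44 and 23 against 34.

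Large territories went with many distal peaks. The median territory was 118.7 kb for these genes and 40.7 kb for all protein-coding genes, and the median gene length was 40.2 kb and 17.4 kb. The Spearman rank correlation of territory with shared distal peaks was 0.783 across the 63 genes and 0.639 across all 21938, again a description. Within bins of territory the means came closer. Up to 50 kb the 25 guidance genes had a mean of 2.64 where all genes had 1.12, and from 100 to 200 kb the 12 genes had 12.2 where all had 6.39. From 200 to 400 kb the 17 genes had 17.1 against 14.0, and above 400 kb the 4 genes had 22.5 against 22.7. Summed over territory, the density was 6.06 per 100 kb against 4.79. By family it ran from 3.79 in the Robos and 5.25 in the Eph receptors to 8.05 in the netrins and 8.33 in the neuropilins.

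**Figure D3:**
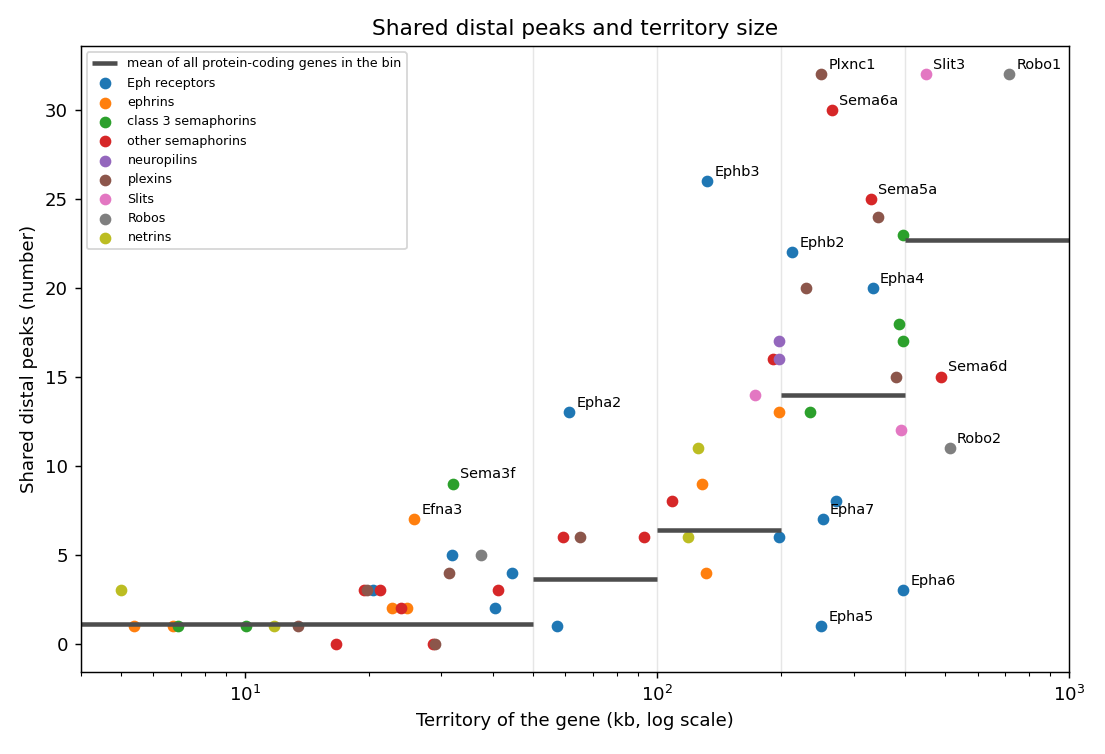
Shared distal peaks of each of the 63 genes (points, coloured by family) against the size of its territory in kb on a log scale. Dark bars give the mean over all protein-coding genes in each bin of territory, such as 6.39 from 100 to 200 kb, where Ephb3 stands far above with 26 and Efnb1 below with 4.

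The distal peaks of these genes lay inside introns more often than other distal peaks and farther from the TSS. Introns held 59.9% of the 624, against 48.6% of all 75905, and 361 (57.9%) lay in an intron of the gene they were given to. The median distance to the nearest TSS was 24.6 kb against 17.6 kb, and 28.8% lay over 50 kb away against 18.5%. The median gene length was 40.2 kb against 17.4 kb, as given above, and its part in these values was not tested. In signal and base composition the peaks were close to the rest. Their median signal was 48 in replicate 1 and 36 in replicate 2, against 50 and 36, their median GC content was 49.3% in both sets, and their median CpG ratio was 0.242 against 0.248. In the top decile of both lists were 30 of them (4.81%), against 6.01%. Upstream of the gene's outermost 5′ end lay 162 (26.0%).

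**Figure D4:**
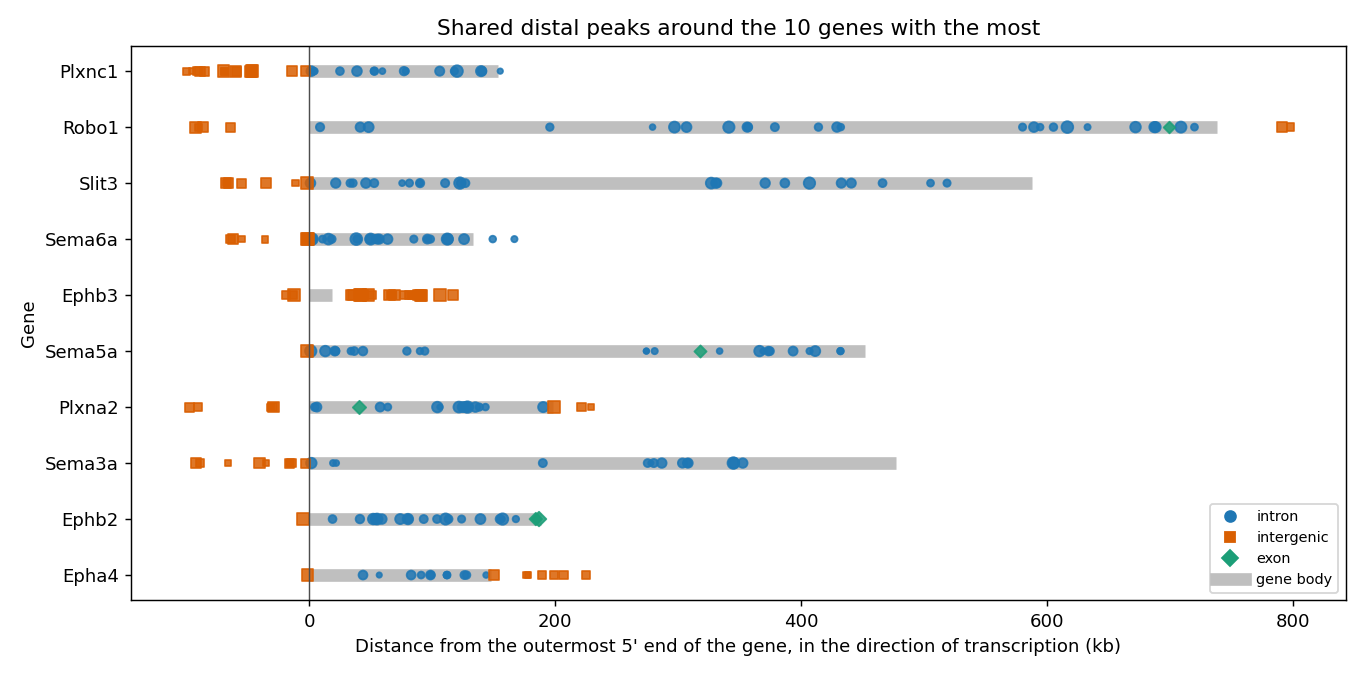
Positions of shared distal peaks at the 10 genes with the most, as the distance in kb from the outermost 5′ end in the direction of transcription, with grey bars for gene bodies. Marker shape and colour give intron, intergenic or exon, and larger markers a higher mean signal percentile. Ephb3 has all its 26 peaks outside the gene, while those of Ephb2, Slit3 and Sema5a lie mostly in introns (19, 25 and 23), and the few intronic markers past the end of Sema6a lie in another gene.

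Most motifs in the 624 distal peaks had shares close to those in distal peaks at large. The letters CAATAAA, read by posterior HOX factors that pattern the distal limb, were in 25 peaks (4.01%, exact 95% interval 2.61 to 5.86) of 18 genes, against 3.05% of all distal peaks. Epha4, Ephb2, Nrp1, Nrp2, Sema3d, Sema6a and Slit3 had 2 such peaks each, and the Nrp2 peak printed above was the strongest. By family the neuropilins had them in 4 of 33 peaks and the Eph receptors in 7 of 121, while the ephrins had 0 of 39, which allows a share of up to 7.69% by 3 counts. The homeodomain letters TAATTA were in 13 peaks (2.08%, 1.11 to 3.54), against 2.65%. Intervals cover counting of peaks only and treat peaks as independent, although many belong to the same gene and some overlap. Each interval given here held the share of all distal peaks.

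The full CTCF site was less frequent. CTCF, an insulator protein, binds a long site that was found in 26 of the 624 (4.17%, 2.74 to 6.05), against 6.52%. Slits and Robos had 6 of 58 and 5 of 48, and plexins 2 of 105. Among peaks with a mean signal percentile of at least 90 it was in 3 of 42 (7.14%), against 15.4%. A shorter core of 8 letters, added after the data were seen, was in 149 of the 624 (23.9%) and also in 23.9% of all distal peaks. Among peaks with a mean signal percentile of at least 90 the core was in 17 of 42 (40.5%), against 38.2%. Most peaks with that core lack the full site, and whether they hold variants of it was not tested. The short NFI site TTGGCA, singled out after its values were seen, was in 127 (20.4%, 17.3 to 23.7), against 16.4%. These shares were not tested.

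Of the letters searched, the E-boxes CAGCTG and CAGATG were the most frequent in these peaks. CAGCTG was in 136 peaks (21.8%, 18.6 to 25.2) of 44 genes, against 20.1%, and CAGATG, read by TWIST and other mesenchymal factors, in 132 (21.2%, 18 to 24.6), against 19.1%. CATATG was in 4.17% against 3.52%, and CAGGTG, bound by SNAI and ZEB repressors, in 11.1% against 11.3%. Class 3 semaphorins had CAGCTG in 8 of 82 peaks (9.76%), the lowest share of the 9 families, and the Eph receptors in 31 of 121 (25.6%). RUNX letters (TGTGGTT, factors of bone and cartilage) were in 5.13% against 4.47%. TEAD letters, marked in the Plxna1 and Plxnb2 peaks, were in 36 peaks (5.77%, 4.07 to 7.9), against 4.64%, and AP-1 letters, marked in the Epha7 peak, in 40 (6.41%), against 6.49%. SOX letters (ACAATGG) were in 1.44% against 1.65%, and TCF/LEF letters in 2.08% against 2.13%. SP/KLF letters (GGGGCGGGG) were in 10 peaks (1.60%) of 6 genes, against 1.18%. The letters bound by REST, which silences neuronal genes outside neurons, were in 0 of the 624, which allows a share of up to 0.481% by 3 counts, and 0.242% of all distal peaks held it.

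**Figure D5:**
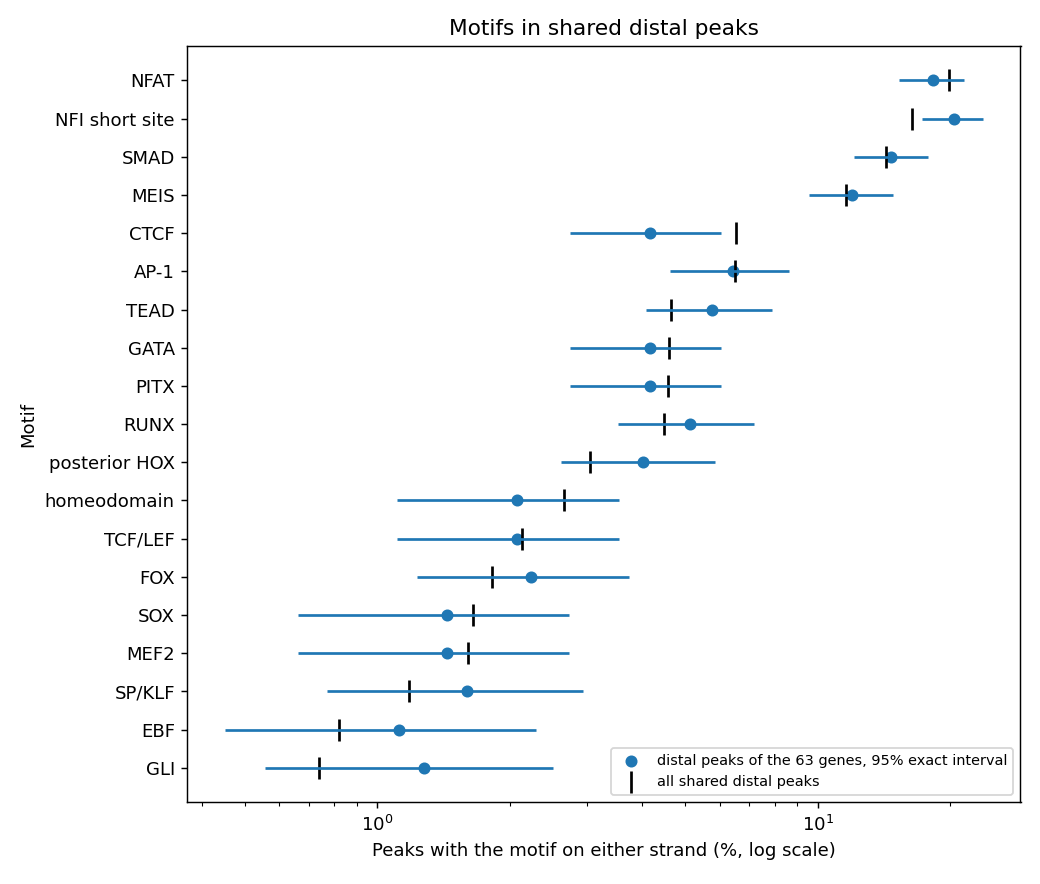
Share of shared distal peaks with each motif, in percent on a log scale, for the 624 peaks of the 63 genes (blue points with exact 95% intervals) and for all 75905 (black ticks). Motifs in at least 5 of the 624 peaks are shown without the E-boxes. The CTCF and short NFI site intervals lie off the black ticks, at 4.17% against 6.52% and 20.4% against 16.4%. They were picked out of all the motifs shown, and no test was made. The intervals treat peaks as independent, although many belong to the same gene and some overlap.

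The other genes of these pathways, outside the symbol rule, were also mostly open. In a list of 42 receptors, co-factors and intracellular effectors, 40 (95.2%) had a shared TSS peak, against 65.1% of all genes, and the mean number of shared distal peaks was 10.3 (median 9.5). The most were at Vav3, a signalling protein downstream of Eph receptors, with 29, then Fyn, a kinase of guidance signalling, with 25, and Mical2, an actin-oxidising enzyme related to plexin effectors, with 24. Neo1, a receptor of netrins and RGM proteins, had 1 TSS peak in each replicate, with signals of 120 and 92, but none that met the rule for shared peaks. Robo4 had no TSS peak in either. Of the netrin receptors, Dcc had 4 shared distal peaks, Unc5a 9, Unc5b 14, Unc5c 17 and Unc5d 3, and all 5 were open.

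The same rule was applied to marker genes of cell types, read beside the 65.1% of all genes that were open. Those of limb mesenchyme were open in 11 of 12 cases, with Lmx1b the exception at 1 TSS peak in replicate 1 and 0 in replicate 2. Neuron markers were open in 7 of 12 cases, Schwann cell markers in 5 of 8, endothelial and muscle markers in 4 of 8 each, epidermal markers in 7 of 8 and blood cell markers in 0 of 8. The shares for neuron (58.3%) and Schwann cell markers (62.5%) lay near that of all genes, and that for epidermal markers (87.5%) near that for limb mesenchyme (91.7%). The CpG ratios ran from 0.0783 to 0.348 at the blood cell markers and from 0.426 to 1.01 at those of limb mesenchyme. They ran from 0.347 to 1.02 at neuron, 0.207 to 0.819 at Schwann cell and 0.244 to 0.764 at endothelial markers. At muscle and epidermal markers they ran from 0.144 to 0.728 and from 0.24 to 0.949. The part of CpG content in these counts was not tested. At least 1 shared distal peak was given to 6 of the 8 blood cell markers, against 64.9% of all genes. The neuron markers Elavl3, Mnx1, Neurod1, Neurog1 and Stmn2 had no shared TSS peak, with CpG ratios of 0.796, 0.796, 0.679, 0.756 and 0.347. Of all genes with a ratio of 0.6 to 0.8, 92.8% were open. These are bulk samples, so a region open in few cells and a region weakly open in many cannot be told apart. Which cells carried the open regions of the guidance genes was not tested.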

How the data were processed

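DNase-seq was analysed from 2 libraries of mouse limb at day 14.5. Per the labels, the values were placed on the mm10 build. The deposited peaks, called per library, carry the authors' signal, a whole number of unknown scaling, used here only as a rank within each list or side by side. The deposited hotspots carry a −log10 q-value from −log10 of 0.05 to a ceiling of 100, and only their positions were used. For the aligner, caller and filters, names and settings were not given in the sources used here. Depth per library is unknown.

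Peaks were compared and assigned to genes with Python 3.11.15, numpy 2.4.6, pandas 2.3.3 and scipy 1.17.1, after a check of the code on simulated peaks, with the rules given above and GENCODE M21. Sequences came from the RefSeq copy of GRCm38, whose chromosome lengths contain every peak. For 29 motifs, both strands of the 150 bp were searched. Intervals are exact binomial (Clopper-Pearson) at 95% and cover counting only. No test between groups was possible with 1 group, and comparisons with all genes are descriptions.

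The 63 genes, the lists, the motifs and the naming rule were chosen with earlier results of these data known. Named are genes with a known role in limb nerves, vessels or patterning, up to 3 per family with the most distal peaks, the 10 genes with the most, all genes without a shared TSS peak, and, among the 42 other pathway genes, the 3 with the most and those without. Genes with 0 shared distal peaks and others beyond this were named after their values were seen. Alternatives were any overlap, the 50000 strongest peaks, hotspots, the outermost 5′ end, TSS windows of 250 and 1000 bp, protein-coding transcripts only, each replicate alone, 50 kb in place of 100 kb and replicate 2 coordinates.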

Additional observations from a re-analysis of the deposited data

How the results depend on the processing

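The number of open genes, 55 of 63, ran from 48 with the 50000 strongest peaks to 57 with windows of 1000 bp. The shares of all genes then open were 55.3% and 67.3%. With each replicate alone the number was 58 to 60, against 68.2 to 69.4% of all genes. With the strongest peaks Efna5, Epha6, Ntn1, Sema4a, Sema4g, Sema6b and Slit1 left the count. With hotspots the count was 53, against 57.2% of all genes, gaining Efna2, Robo3 and Sema3e and losing Epha2, Nrp1, Sema4c, Sema6a and Sema7a. The 95 shared TSS peaks became 63 with the outermost 5′ end and 147 to 165 with each replicate alone. The 624 shared distal peaks became 134 with the 50000 strongest peaks and 998 to 999 with each replicate alone. The mean number of distal peaks over that of all genes, 2.86, was 2.45 with the strongest peaks, 2.28 with the outermost 5′ end, 2.38 with protein-coding transcripts, 2.5 within 50 kb and 2.76 to 2.98 with each replicate alone. It stayed above 2 under every alternative run. The cause of these shifts was not tested.

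The median signal percentile of the TSS peaks, 89.4, was 86.4 with any overlap, 74.3 with the strongest peaks, 91.8 and 82.7 with windows of 250 and 1000 bp, 90.8 with the outermost 5′ end, 91.0 with protein-coding transcripts, 88.3 with replicate 2 coordinates and 74.6 to 76.7 with each replicate alone. That of the distal peaks, 59.7, was 57.8 with any overlap, 47.8 with the strongest peaks, 62.4 with the outermost 5′ end, 60.9 with protein-coding transcripts, 60.3 within 50 kb and 50.1 to 50.9 with each replicate alone. The ratio of CTCF shares, 0.639, was 0.997 for the shorter core, added after seeing the data. Most peaks with the shorter core lack the full site. No paired analysis was possible because there is 1 group.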
